A study of Mus musculus with 26 samples.

Results

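Stromal vascular cells (SVC) are the cells that sediment when a fat pad is digested with collagenase and the buoyant adipocytes are taken off. The comparison described here sets 3 SVC libraries of mice moved from a high fat to a low fat diet (SW, numbered 412, 413 and 414) against 2 SVC libraries of mice kept on the high fat diet (HFD, numbered 212 and 411). They were chosen by the diet in their column names and make up 5 of the 15 libraries used here. All animals were male C57BL/6J mice that started their diet at 9 to 10 weeks of age. HFD mice ate a diet with 60% fat for 12 weeks, and SW mice ate it for 9 weeks and then a diet with 10% fat for 3 weeks. A single SVC library from mice fed the 10% fat diet for 12 weeks (LFD, numbered 236) entered the fit and is given beside some values, with no replicate and no test. The SVC came from epididymal fat, were passed through a 100 µm filter and were treated with a buffer that lyses red blood cells. The labels do not say whether each library is 1 mouse, so the p-values measure the spread between these libraries.

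The SVC of fat are a mixture. They hold macrophages and other immune cells, the endothelial cells of blood and lymph vessels, the mural cells that wrap small vessels, and the fibroblast-like progenitors that give rise to adipocytes and lay down collagen. In obesity, macrophages collect around dying adipocytes, take up their lipid and express genes of lipid handling, and progenitors and macrophages divide. In bulk RNA, fewer cells of a type and less RNA per cell cannot be told apart.

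Counts in the 5 libraries totalled between 10121939 and 22195810. CPM values (counts scaled to a common library size) below use the counts of the genes tested and TMM factors, and values are always in the order 212 and 411 for HFD and 412, 413 and 414 for SW. The markers of the fraction were present throughout, among them Cd68 of macrophages (953 and 1127 CPM in HFD and 1628, 1283 and 1557 CPM in SW), Cdh5 of endothelium (92.1 and 62.5 CPM in HFD and 90.9, 73.5 and 62.2 CPM in SW) and Dcn of fibroblasts (2591 and 1357 CPM in HFD and 1806, 1890.1 and 2608 CPM in SW). Adipoq, a hormone gene of adipocytes, measured 12.8 and 31 CPM in HFD and 68.5, 30.1 and 58.5 CPM in SW, so some adipocyte RNA was in every library.

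The HFD libraries were unlike each other. Mitochondrial genome transcripts made up 6.34% of the counts of library 212 and 33.5% of library 411, against 5.64% to 9.54% in SW. Library 212 was low in hemoglobin transcripts (0.287%, against 2.76% to 3.57% in the other 4) and high in immediate early genes, which cells switch on within minutes of disturbance. The 16 immediate early genes summed to 10670.4 CPM in library 212 and 1381 CPM in library 411, on either side of the SW libraries at 2741 to 4869 CPM. Liver transcripts stood out in library 411, where 18 hepatocyte genes summed to 3501 CPM against 32.2 to 47 CPM in the other HFD and the SW libraries. Alb, which encodes serum albumin, measured 12.8 and 1161 CPM in HFD and 14.7, 7.44 and 7.45 CPM in SW. Transcripts of developing sperm stood out in SW libraries 412 and 413, where 16 spermatid genes summed to 1324 and 1443 CPM against 83 CPM in library 414 and 11.5 and 45.2 CPM in HFD. These lists were put together after the values were seen.

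**Figure D1:**
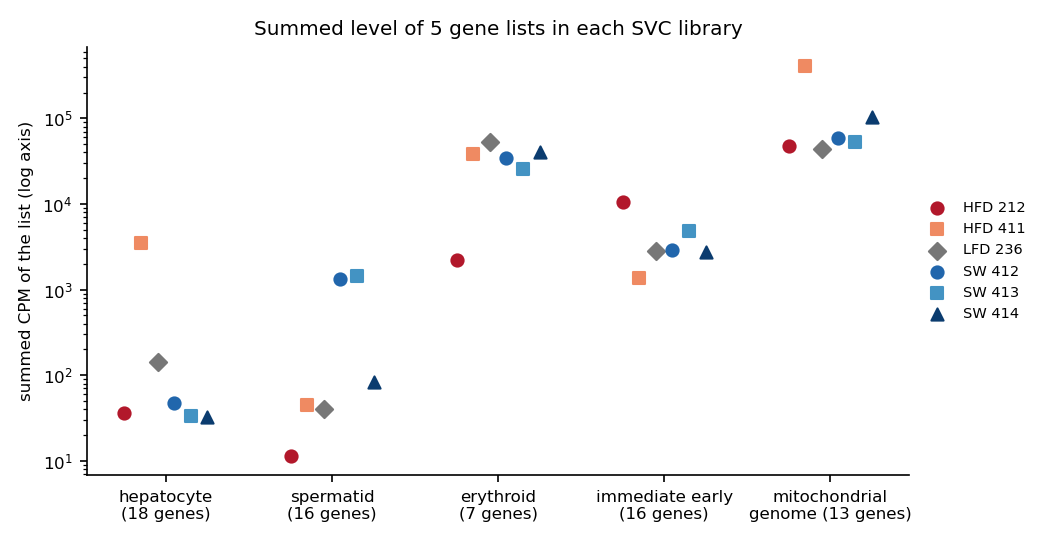
Summed CPM (log axis) of 5 gene lists in the 6 SVC libraries, 1 point per library, red and orange for HFD, grey for LFD and blues for SW. Hepatocyte transcripts were high in HFD library 411 (3501 CPM), spermatid transcripts in SW libraries 412 and 413, and immediate early transcripts in HFD library 212.

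Across 16319 genes tested in 1 fit, 2849 passed an adjusted p-value of 0.05 between SW and HFD (quasi-likelihood test of edgeR, adjusted by the method of Benjamini and Hochberg), which is 17.5%. Of these, 932 (5.71%) were higher and 1917 (11.7%) lower in SW, and the median log2 difference of all genes was 0.035. The calls sat close to the threshold, with the smallest adjusted p at 0.0362. Without SW library 412 or without SW library 413 edgeR called 0 genes, although 4217 and 5435 genes then had an unadjusted p under 0.05. Without SW library 414 it called 593, of which 268 were among the 2849. With HFD library 411 alone 503 genes passed, and with HFD library 212 alone 6213. A fit with 1 HFD library takes its spread from the SW libraries alone, so passing it does not measure spread between HFD libraries. Both such fits share the SW libraries and are not separate support. In 58.6% of all genes the SW libraries did not overlap with the HFD libraries. The same held for 2845 of the 2849 called genes, so it adds little to a call. With 3 libraries against 2 there are 10 splits, and an exact rank test of a single gene cannot go below p = 0.2 (two-sided).

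The calls followed base composition. Genes higher in SW had a median GC content of 55.8% in their longest transcript and genes lower in SW 42.8%, against 50.6% for the genes not called. In the fifth of genes with the lowest GC content, 38.3% were lower in SW and 0.185% higher. In the fifth with the highest, 15.2% were higher and 0.186% lower. The median log2 difference ran from -1.53 to 0.709 from the lowest to the highest of 5 equal groups, and it ran the same way against each HFD library. After a correction for GC content edgeR called 0 genes, 4629 had an unadjusted p under 0.05, and the median of all genes moved from 0.035 to -0.19. The part of GC content in any single result was not tested, so the medians of most gene groups below are given against each HFD library and with the GC correction. For all genes these medians were 0.10 against HFD library 212, 0.054 against HFD library 411 and -0.19 with the GC correction.

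**Figure D2:**
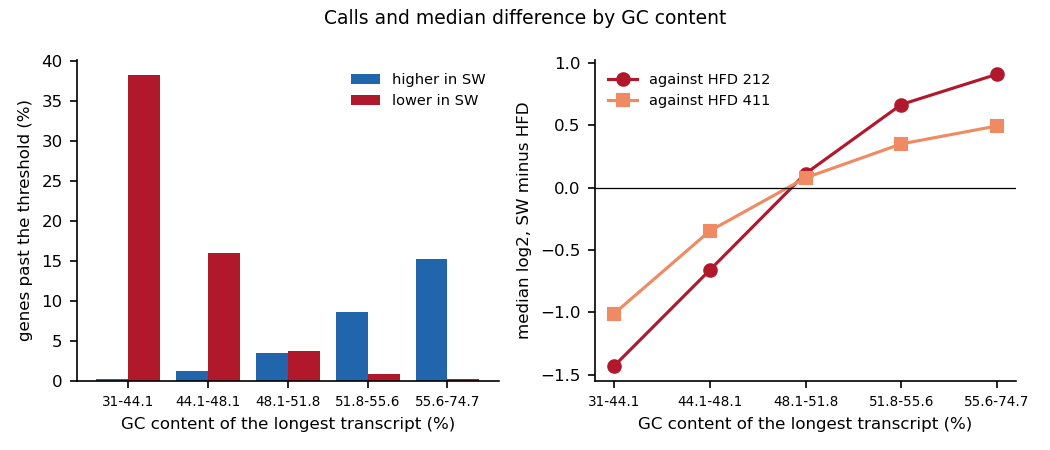
Genes past the threshold (left, %) and median log2 difference between SW and each HFD library (right) in 5 equal groups of genes by GC content of the longest transcript (%). The share lower in SW dropped from 38.3% to 0.186% with rising GC content and the share higher rose from 0.185% to 15.2%, and the median rose with GC content against each HFD library.

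Most genes with the largest folds were liver and sperm genes. Of the 12 largest falls, 11 were liver genes that were high in HFD library 411 alone, among them Apoa1, an apolipoprotein of high density lipoprotein (1.62 and 326 CPM in HFD and 0.928, 1.28 and 1.1 CPM in SW). The exception was Ptgs2, the inducible cyclooxygenase of prostaglandin synthesis, with 26.3 and 22.1 CPM in HFD and 2.27, 1.65 and 1.31 CPM in SW (log2 -3.79 ± 0.35 SE, adjusted p = 0.0362). It was lower in all SW libraries than in both HFD libraries, as the choice of the 12 required. With the GC correction its log2 difference was -2.43 (unadjusted p = 0.00024, edgeR). Of the 12 largest rises, the sperm genes Spert, Tuba3b, Tcp11, Oaz3, Ldhc, Odf1 and Smcp were high in SW libraries 412 and 413 and much lower in library 414, as for Tcp11 (1.1 and 4.28 CPM in HFD and 138, 169.9 and 8.98 CPM in SW). Ccdc92, Sh3d21 and Osbp2 had that shape too, for instance Osbp2 with 3.25 and 4.28 CPM in HFD and 42.2, 53.6 and 11.6 CPM in SW. The others were Mrgprg, a receptor of the Mas-related family (0.174 and 1.52 CPM in HFD and 15.8, 23.5 and 30.2 CPM in SW), and Inmt, an enzyme that methylates small amines (80.9 and 89.3 CPM in HFD and 813, 651 and 706 CPM in SW). Inmt was below 90 CPM in both HFD libraries and at least 651 CPM in every SW library (log2 3.09 ± 0.27 SE, adjusted p = 0.0362), with 987 CPM in the LFD library. With the GC correction its log2 difference was 2.36 (unadjusted p = 3.67e-05, edgeR).

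Among 397 genes of 33 lists of cell types and processes, 56 (14.1%) were called, 26 higher and 30 lower, against 17.5% of all genes. Most of the 56 were also called with HFD library 212 alone, but so were most of the 2849 called genes, so this adds little. With HFD library 411 alone only a minority of either set was called, a smaller share of the 2849 than of the 56. Those of the 56 called with library 411 alone were Msr1 of macrophages, Ace, Vwf of endothelium, the lymphatic genes Ccl21a, Flt4 and Reln, the mural genes Acta2, Des, Notch3, Pdgfrb and Rgs5, Serpinf1 and Ggt5 of progenitors and preadipocytes, the collagen genes Col6a1 and Col6a2, and the cell cycle genes Mki67, Top2a and Pcna. All but Msr1, Pdgfrb and Serpinf1 had an unadjusted p under 0.05 in edgeR with the GC correction as well.

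**Figure D3:**
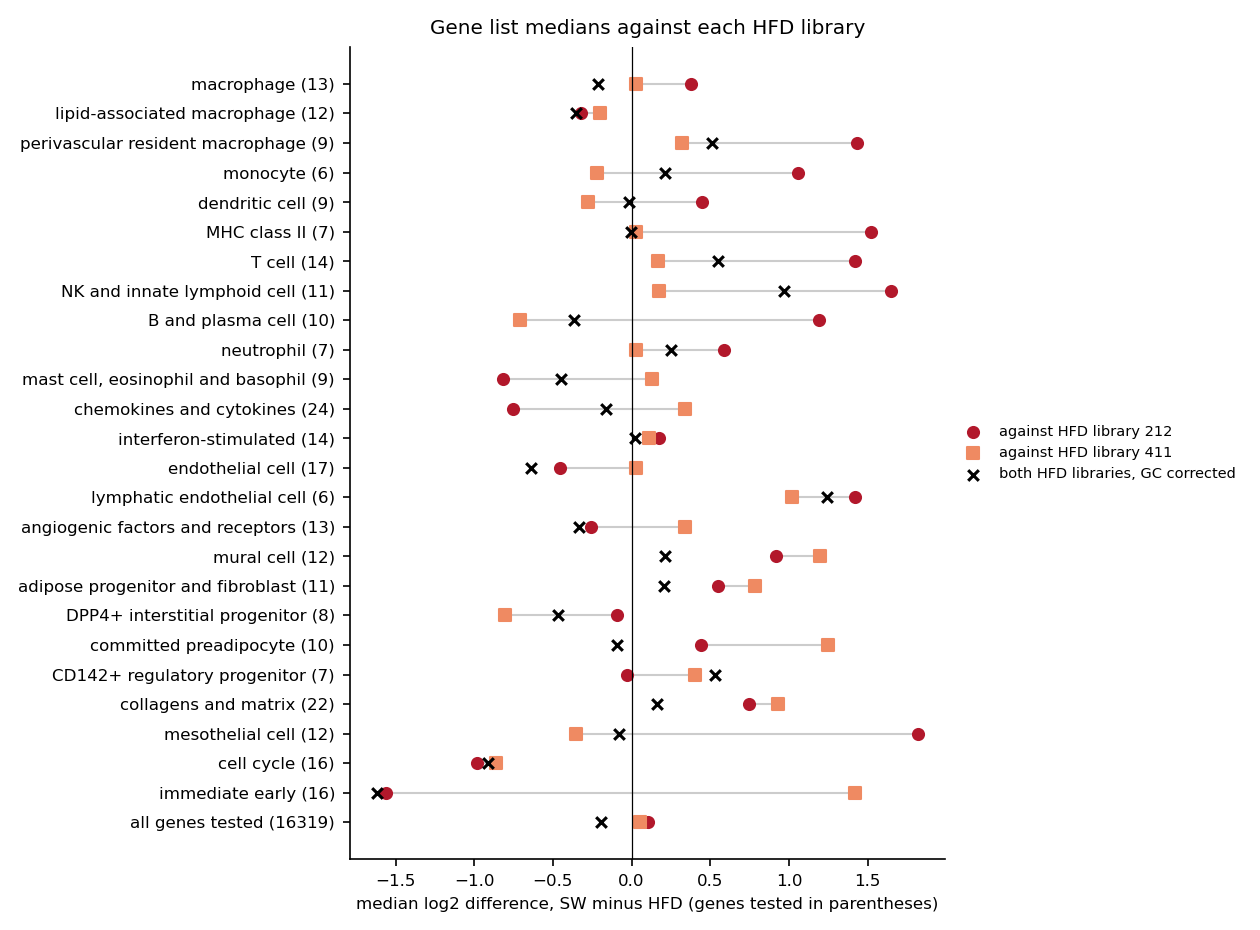
Median log2 difference between the mean of the 3 SW libraries and each HFD library (red circles, library 212, and orange squares, library 411), and fitted median with the GC correction (crosses), for 25 gene lists and all genes tested. The lymphatic list lay above 0 and the cell cycle list below 0 by all 3 measures. Several other lists also kept their sign, among them mural and T cell genes above 0 and lipid-associated macrophage genes below 0. Immediate early, B cell and mesothelial genes lay on opposite sides of 0 against the 2 HFD libraries.

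Of 13 macrophage genes tested, 2 were lower and none higher in SW, where 11.7% of all genes were lower and 5.71% higher (5 had an unadjusted p under 0.05, and DESeq2 called 5 and limma-voom 2). The median log2 difference was -0.049, with 0.38 against HFD library 212, 0.03 against HFD library 411 and -0.21 with the GC correction. Both genes that fell encode scavenger receptors. Msr1, which takes up modified lipoproteins, measured 79.8 and 64.4 CPM in HFD and 21.4, 20.2 and 26.7 CPM in SW, and Mrc1, the mannose receptor CD206, measured 333 and 306 CPM in HFD and 84.5, 134 and 111 CPM in SW. For each, every SW library was below both HFD libraries, and nearly all called genes had groups that did not overlap (log2 -1.66 ± 0.23 SE, adjusted p = 0.0362 for Msr1, and log2 -1.55 ± 0.25 SE, adjusted p = 0.0362 for Mrc1). Both are poor in GC, and with the correction the log2 difference was -0.21 for Msr1 (unadjusted p = 0.501) and -0.65 for Mrc1 (unadjusted p = 0.0349, edgeR), where the median of all genes was -0.19. Mrc1 passed with HFD library 212 alone but not with library 411 alone (adjusted p = 0.0583, edgeR). The most abundant members, Lyz2 for lysozyme and C1qa and C1qb for complement C1q, were not called. C1qb measured 1391 and 3147 CPM in HFD and 4039, 2872 and 3619 CPM in SW, so its SW libraries lay above library 212 and on both sides of library 411. Every SW library was above both HFD libraries for 3 of the 13, Cd68, Csf1r and C1qa, and below both for 5. Of all genes 28.5% were above and 30% below. Csf1r measured 697 and 1491 CPM in HFD and 2478, 1948 and 2562 CPM in SW. It was not called (adjusted p = 0.0983, edgeR) and was at 0.40 on the log2 scale with the GC correction (unadjusted p = 0.301, edgeR).

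In the list of lipid-associated macrophages, the cells that engulf lipid from dying adipocytes, 3 of 12 genes were lower in SW and none higher (5 had an unadjusted p under 0.05, and DESeq2 called 6 and limma-voom 2). Of all genes 11.7% were lower and 5.71% higher. Cd36, a fatty acid transporter, measured 2669 and 1403 CPM in HFD and 291, 484 and 277 CPM in SW (log2 -2.54 ± 0.41 SE, adjusted p = 0.0362). Lpl, the lipase that frees fatty acids from lipoproteins, measured 3656 and 1565 CPM in HFD and 539, 787 and 713 CPM in SW (log2 -1.94 ± 0.42 SE, adjusted p = 0.0394). Spp1, the secreted protein osteopontin, measured 161 and 36.8 CPM in HFD and 11.5, 19.1 and 13.4 CPM in SW (log2 -2.75 ± 0.60 SE, adjusted p = 0.0396). All SW libraries were below both HFD libraries for each, and the gap to library 212 was wider than to library 411. The GC correction brought the log2 differences to -1.13, -0.99 and -1.75 (unadjusted p = 0.0102, 0.0237 and 0.00796, edgeR). With HFD library 411 alone none of the 3 was called (adjusted p = 0.0531, 0.0842 and 0.0899, edgeR). The median log2 difference of the list was -0.24, with -0.32 against HFD library 212, -0.20 against HFD library 411 and -0.35 with the GC correction. Of its 12 genes 7 lay below both HFD libraries in every SW library, where this held for 30% of all genes. Besides the 3 called these were Mmp12, a macrophage elastase, and Cd9, Fabp5 and Lipa, with log2 differences of -1.26, -0.34, -0.32 and -0.15 (adjusted p = 0.074, 0.274, 0.327 and 0.616, edgeR). Mmp12 measured 1173 and 449 CPM in HFD and 371, 361 and 282 CPM in SW. The other 5 members were not below both HFD libraries. Lgals3, galectin 3, measured 2372 and 4642 CPM in HFD and 4273, 3204 and 3753 CPM in SW, and Trem2, the lipid receptor that defines these cells, 638 and 861 CPM in HFD and 821, 709 and 742 CPM in SW (0.015 on the log2 scale, adjusted p = 0.971). Gpnmb, a glycoprotein of lipid-laden macrophages, measured 2741 and 2355 CPM in HFD and 3896, 4045 and 3319 CPM in SW, and Itgax, the integrin CD11c, 392 and 263 CPM in HFD and 667, 707 and 600.4 CPM in SW. Both were above both HFD libraries in every SW library without passing the threshold (adjusted p = 0.194 and 0.0514, edgeR). In the LFD library Gpnmb was at 396 CPM and Trem2 at 74.4 CPM. Fatty acid handling also included Fabp4, the lipid chaperone aP2 of adipocytes and macrophages, with 1059 and 529 CPM in HFD and 254, 165 and 141 CPM in SW (log2 -2.08 ± 0.40 SE, adjusted p = 0.0373) and -0.97 on the log2 scale with the GC correction (unadjusted p = 0.0323, edgeR). Of 16 genes of lysosomes and cholesterol handling edgeR called 1 lower and none higher (5 had an unadjusted p under 0.05, and DESeq2 called 4 and limma-voom 1), and the median was -0.088, with -0.093 against HFD library 212, 0.10 against HFD library 411 and -0.24 with the GC correction. The gene called was Lamp2, a lysosomal membrane protein (419 and 320.05 CPM in HFD and 138, 153 and 185 CPM in SW), and its log2 difference of -1.22 turned to 0.21 with the GC correction.

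The medians of most other immune lists differed between the HFD libraries. For the calls in these lists, 17.5% of all genes were called, 5.71% higher and 11.7% lower. In edgeR 0 of 9 genes of resident perivascular macrophages were called (1 had an unadjusted p under 0.05, DESeq2 called 2 and limma-voom 0). Their median was 0.89, with 1.43 against HFD library 212, 0.32 against HFD library 411 and 0.51 with the GC correction. Cbr2, a carbonyl reductase of these cells, measured 55.8 and 391 CPM in HFD and 919.9, 535 and 799 CPM in SW, and Folr2, a folate receptor, 339 and 554 CPM in HFD and 669, 483 and 635 CPM in SW. MHC class II genes, which present antigen, were likewise called in 0 of 7 cases by edgeR, with an unadjusted p under 0.05 for 0 genes and 0 calls by DESeq2 and limma-voom. Their median was 0.65, with 1.52 against HFD library 212, 0.027 against HFD library 411 and -0.0067 with the GC correction. Cd74, the invariant chain, measured 3505 and 6885 CPM in HFD and 9841, 6292 and 10065 CPM in SW. Every SW library exceeded library 212 and only libraries 412 and 414 exceeded library 411. B and plasma cell genes gave a median of 0.093, with 1.19 against HFD library 212, -0.71 against HFD library 411 and -0.36 with the GC correction, and 0 of 10 were called by edgeR (1 with an unadjusted p under 0.05, 1 called by DESeq2 and 0 by limma-voom). T cell genes gave a median of 0.75, with 1.42 against HFD library 212, 0.17 against HFD library 411 and 0.55 with the GC correction. NK and innate lymphoid cell genes gave 0.78, with 1.65 against HFD library 212, 0.17 against HFD library 411 and 0.97 with the GC correction. Each of these lists held 1 called gene, in both cases lower in SW. These were Il7r, the interleukin 7 receptor (69.3 and 33.1 CPM in HFD and 9.38, 17.2 and 9.42 CPM in SW, log2 -2.08 ± 0.43 SE, adjusted p = 0.0381), and Il1rl1, the interleukin 33 receptor ST2 (42 and 16.6 CPM in HFD and 3.09, 7.48 and 4.71 CPM in SW, log2 -2.505 ± 0.53 SE, adjusted p = 0.0381). With HFD library 411 alone neither passed (adjusted p = 0.105 and 0.117, edgeR). The T cell receptor component Cd3e was scarce, at 2.49 and 4.21 CPM in HFD and 6.18, 2.93 and 10.7 CPM in SW.

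Ace, angiotensin converting enzyme, was on the monocyte list as a gene of the patrolling subset and was among the clearest rises. It measured 178 and 199.96 CPM in HFD and 926, 1069.5 and 964 CPM in SW (log2 2.38 ± 0.27 SE, adjusted p = 0.0362), and 2214 CPM in the LFD library. The HFD libraries were within a narrow range and every SW library was well above it. The rise was 2.46 on the log2 scale against HFD library 212 and 2.30 against HFD library 411. With the GC correction it was 1.57 (unadjusted p = 0.000779, edgeR). Which cells of the fraction carried Ace was not tested. Other monocyte genes were far less abundant. Plac8 measured 18.8 and 35.9 CPM in HFD and 50, 24 and 58.6 CPM in SW and was not called. Ccr2, the chemokine receptor of inflammatory monocytes, measured 28.9 and 114 CPM in HFD and 12.8, 18.9 and 21 CPM in SW, with all SW libraries below both HFD libraries and an adjusted p of 0.0531 (edgeR). The median of the monocyte list was 0.27, with 1.06 against HFD library 212, -0.22 against HFD library 411 and 0.21 with the GC correction. That of the dendritic cell list was 0.00099, with 0.45 against HFD library 212, -0.28 against HFD library 411 and -0.018 with the GC correction. In the latter Fscn1, an actin bundling protein, was called higher (64.6 and 70.9 CPM in HFD and 142, 128 and 109 CPM in SW, log2 0.90 ± 0.22 SE, adjusted p = 0.0431), but was -0.066 on the log2 scale with the GC correction.

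Several inflammatory cytokines were high in HFD library 212 alone. Tnf measured 84 and 6.28 CPM in HFD and 7.63, 6.53 and 9.75 CPM in SW, Il6 21.4 and 0.069 CPM in HFD and 0, 0.207 and 0.219 CPM in SW, and Cxcl2, a neutrophil chemokine, 452 and 5.86 CPM in HFD and 10.5, 10.3 and 13.6 CPM in SW, so library 411 lay in or near the SW range for Tnf and Cxcl2. Library 212 was also the one high in immediate early genes, as in Fos with 1609 and 146 CPM in HFD and 318, 453 and 359.7 CPM in SW, and the part of that in the cytokine values was not tested. Of 24 chemokines and cytokines edgeR called 1, lower in SW (9 had an unadjusted p under 0.05, and DESeq2 called 7 and limma-voom 0). It was Ccl2, which draws monocytes (59.9 and 43 CPM in HFD and 19.2, 25.3 and 27.9 CPM in SW, log2 -1.09 ± 0.26 SE, adjusted p = 0.0436), and its log2 difference was -0.30 with the GC correction (unadjusted p = 0.352, edgeR). The median of the list was -0.55, with -0.76 against HFD library 212, 0.34 against HFD library 411 and -0.16 with the GC correction. Of 14 interferon-stimulated genes 3 were lower in SW and none higher, where 11.7% of all genes were lower and 5.71% higher (5 with an unadjusted p under 0.05, 3 called by DESeq2 and 0 by limma-voom). The median of this list was 0.11, with 0.17 against HFD library 212, 0.11 against HFD library 411 and 0.024 with the GC correction. The genes called were Rsad2, the antiviral enzyme viperin (16.4 and 7.73 CPM in HFD and 2.78, 3.97 and 1.86 CPM in SW, log2 -2.05 ± 0.49 SE, adjusted p = 0.0431), Ifit2, an interferon-induced antiviral protein (8 and 6.14 CPM in HFD and 1.24, 2.98 and 1.86 CPM in SW), and Ifi44, at 2.09 CPM or less in every HFD and SW library. With HFD library 411 alone none of the 3 passed (adjusted p = 0.15, 0.15 and 0.177, edgeR). The GC correction brought Rsad2, Ifit2 and Ifi44 to -1.29, -0.69 and -1.68 on the log2 scale (unadjusted p = 0.0127, 0.143 and 0.0798, edgeR). The abundant members Bst2 and Irf7 were not called, as for Bst2, the membrane protein tetherin, with 75 and 62.6 CPM in HFD and 91.6, 59.3 and 78.4 CPM in SW.

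Endothelial genes passed in both directions. Of 17 endothelial genes 3 were higher and 1 lower, where 5.71% of all genes were higher and 11.7% lower. The median was -0.15, with -0.45 against HFD library 212, 0.03 against HFD library 411 and -0.64 with the GC correction. Vwf, the von Willebrand factor of platelet adhesion, measured 31.5 and 28.1 CPM in HFD and 135, 118 and 111 CPM in SW (log2 2.03 ± 0.22 SE, adjusted p = 0.0362), with 504 CPM in the LFD library. Eng, a co-receptor of the TGF-beta family, measured 122 and 173 CPM in HFD and 359.5, 285 and 308 CPM in SW (log2 1.10 ± 0.26 SE, adjusted p = 0.0431), and Tie1, a receptor kinase of vessels, 49.2 and 47 CPM in HFD and 116, 80.02 and 86.2 CPM in SW (log2 0.96 ± 0.24 SE, adjusted p = 0.0445). With the GC correction Vwf kept a log2 difference of 1.14 (unadjusted p = 0.00326), while Eng was at 0.25 (unadjusted p = 0.348) and Tie1 at 0.058 (unadjusted p = 0.838, edgeR). The gene that was lower was Ptprb, the phosphatase that opposes angiopoietin signalling (42.3 and 18.1 CPM in HFD and 8.86, 12.3 and 6.68 CPM in SW, log2 -1.69 ± 0.44 SE, adjusted p = 0.0471). Eng, Tie1 and Ptprb did not pass with HFD library 411 alone (adjusted p = 0.0898, 0.0915 and 0.172, edgeR). The general markers Pecam1 and Cdh5 were not called, and Pecam1 measured 107 and 49.3 CPM in HFD and 86.8, 69.8 and 54.8 CPM in SW, with SW between the HFD libraries.

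Of 6 lymphatic endothelial genes tested, 3 were higher and none lower, where 5.71% of all genes were higher and 11.7% lower (4 had an unadjusted p under 0.05, and DESeq2 called 4 and limma-voom 3). The median log2 difference was 1.23, with 1.42 against HFD library 212, 1.02 against HFD library 411 and 1.24 with the GC correction, and it ranged from 1.11 to 1.68 when each HFD or SW library was left out. Ccl21a, the chemokine that guides dendritic cells and T cells into lymph vessels and nodes, measured 17.6 and 20.1 CPM in HFD and 182, 108 and 181 CPM in SW (log2 3.06 ± 0.33 SE, adjusted p = 0.0362). Reln, a secreted glycoprotein of lymph vessels, measured 2.09 and 3.03 CPM in HFD and 10.8, 10.7 and 12.3 CPM in SW (log2 2.14 ± 0.31 SE, adjusted p = 0.0362). Flt4, the receptor of the lymphatic growth factor VEGF-C, measured 6.2 and 10.3 CPM in HFD and 31.7, 24.6 and 28.7 CPM in SW (log2 1.78 ± 0.31 SE, adjusted p = 0.0362). The groups did not overlap for any of the 3, as in 58.6% of all genes and in 2845 of the 2849 called. The LFD library was higher still at 379, 39.6 and 75.6 CPM. The log2 differences were 3.12, 2.19 and 2.11 against HFD library 212 and 2.94, 1.73 and 1.42 against HFD library 411. With the GC correction they were 2.24, 1.74 and 0.97 (unadjusted p = 0.000145, 0.000925 and 0.00876, edgeR). Pdpn, podoplanin, which fibroblasts and macrophages also express, measured 43 and 46.5 CPM in HFD and 70.6, 58.8 and 85.3 CPM in SW and was not called (adjusted p = 0.08, edgeR). Prox1, the transcription factor of lymphatic identity, was below 1 CPM in each HFD and SW library (0.29 and 0.69 CPM in HFD and 0.825, 0.62 and 0.548 CPM in SW), so its level says little at this depth.

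Among 12 mural genes 5 were higher and 1 lower in SW, where 5.71% of all genes were higher and 11.7% lower. The median log2 difference was 0.98, with 0.92 against HFD library 212, 1.20 against HFD library 411, and 0.21 with the GC correction. Genes of contractile vessel cells were among the rises. Acta2, smooth muscle actin, measured 48.9 and 35.5 CPM in HFD and 167, 146 and 167 CPM in SW (log2 1.92 ± 0.25 SE, adjusted p = 0.0362), and Des, the intermediate filament desmin, 28.1 and 18.4 CPM in HFD and 104, 85.2 and 88 CPM in SW (log2 1.99 ± 0.27 SE, adjusted p = 0.0362). Notch3, the Notch receptor of smooth muscle, measured 26.8 and 27.6 CPM in HFD and 113, 108 and 82.3 CPM in SW (log2 1.89 ± 0.23 SE, adjusted p = 0.0362). For all 3, the lowest SW library was well above the higher HFD library. Pdgfrb, the platelet-derived growth factor receptor of pericytes and fibroblasts, measured 139 and 66.4 CPM in HFD and 252, 295 and 254 CPM in SW (log2 1.38 ± 0.36 SE, adjusted p = 0.0476), and Tagln, transgelin, 46 and 36.7 CPM in HFD and 102, 68.7 and 87.4 CPM in SW (log2 1.05 ± 0.25 SE, adjusted p = 0.0435). The GC correction left Acta2 at 1.78, Des at 1.08 and Notch3 at 0.94 (unadjusted p = 0.000332, 0.0125 and 0.00602), and Pdgfrb at 0.50 and Tagln at 0.44 (unadjusted p = 0.269 and 0.188, edgeR). Tagln was not called with either HFD library alone (adjusted p = 0.0519 with library 212 and 0.0721 with library 411, edgeR). Rgs5, a regulator of G protein signalling that marks pericytes, moved the other way with 82.3 and 35.9 CPM in HFD and 10.7, 11.7 and 11.1 CPM in SW (log2 -2.40 ± 0.37 SE, adjusted p = 0.0362), and was -1.11 on the log2 scale with the GC correction (unadjusted p = 0.0101). The mural genes Abcc9 and Mcam differed in sign between the HFD libraries, with log2 differences of -1.37 and -0.99 against library 212 and 0.033 and 0.36 against library 411.

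**Figure D4:**
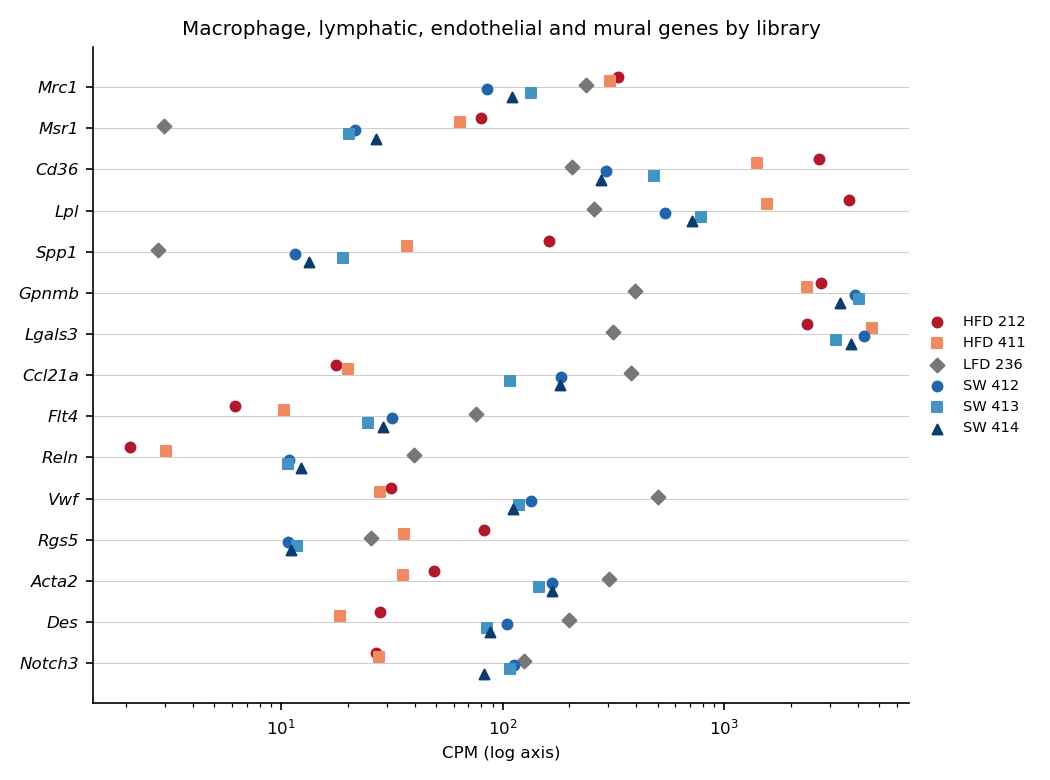
CPM (log axis) of 15 macrophage, lymphatic, endothelial and mural genes, 1 point per SVC library, red and orange for HFD, grey for LFD and blues for SW. All SW libraries were below both HFD libraries for Mrc1, Msr1, Cd36, Lpl, Spp1 and Rgs5, and above both for Gpnmb, Ccl21a, Flt4, Reln, Vwf, Acta2, Des and Notch3, while Lgals3 overlapped.

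Of 13 angiogenic factors and receptors 3 were lower in SW and none higher, where 11.7% of all genes were lower and 5.71% higher. The median was 0.029, with -0.26 against HFD library 212, 0.34 against HFD library 411 and -0.33 with the GC correction. The genes called were Hif1a, the oxygen-sensitive transcription factor (52.5 and 31 CPM in HFD and 6.29, 12.2 and 10.5 CPM in SW, log2 -2.10 ± 0.38 SE, adjusted p = 0.0362), Angpt2, a ligand that loosens vessels (21.4 and 13.6 CPM in HFD and 6.49, 6.78 and 6.24 CPM in SW, log2 -1.42 ± 0.31 SE, adjusted p = 0.0399), and Nrp1, a co-receptor of VEGF and semaphorins (167 and 108 CPM in HFD and 48.2, 71.7 and 57.2 CPM in SW, log2 -1.22 ± 0.28 SE, adjusted p = 0.0413). With the GC correction Angpt2 was at -1.14 and Hif1a at -0.88 (unadjusted p = 0.00911 and 0.023), while Nrp1 was at -0.058 (unadjusted p = 0.819, edgeR). None of the 3 passed with HFD library 411 alone (adjusted p = 0.0788, 0.122 and 0.119, edgeR). Vegfa itself measured 28.7 and 8.07 CPM in HFD and 5.77, 8.47 and 6.03 CPM in SW, with library 411 in the SW range.

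Of 11 genes of adipose progenitors and fibroblasts 2 were higher and none lower, where 5.71% of all genes were higher and 11.7% lower (7 had an unadjusted p under 0.05, and DESeq2 called 7 and limma-voom 2). The median was 0.69, with 0.55 against HFD library 212, 0.79 against HFD library 411 and 0.20 with the GC correction. Serpinf1, the secreted factor PEDF, measured 492 and 339 CPM in HFD and 987, 1100.5 and 1134 CPM in SW (log2 1.37 ± 0.29 SE, adjusted p = 0.0381). Ly6a, the surface antigen Sca-1, which endothelium also carries, measured 293 and 239 CPM in HFD and 586, 507 and 879 CPM in SW (log2 1.30 ± 0.33 SE, adjusted p = 0.046). Ly6a kept 1.49 on the log2 scale with the GC correction (unadjusted p = 0.00545) but passed with neither HFD library alone (adjusted p = 0.0645 with library 212 and 0.0966 with library 411, edgeR). Serpinf1 had log2 differences of 1.13 against HFD library 212 and 1.66 against HFD library 411. It was at 0.58 with the GC correction (unadjusted p = 0.151, edgeR). Pdgfra, the surface receptor by which these cells are usually sorted, measured 158 and 43.5 CPM in HFD and 53.4, 114 and 58.2 CPM in SW, so SW lay between the HFD libraries. Col3a1 and Dcn also differed in sign between the HFD libraries.

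Genes of DPP4+ interstitial progenitors, a reserve of early progenitors, had 2 of 8 members lower and none higher (5 had an unadjusted p under 0.05, and DESeq2 called 5 and limma-voom 0). Of all genes 11.7% were lower and 5.71% higher. The median was -0.76, with -0.091 against HFD library 212, -0.81 against HFD library 411 and -0.47 with the GC correction. Dpp4, the peptidase that names them, measured 22.3 and 42.1 CPM in HFD and 7.11, 13.2 and 11.2 CPM in SW (log2 -1.61 ± 0.39 SE, adjusted p = 0.0431), and Cd55, which restrains complement, 60.1 and 93.3 CPM in HFD and 20.4, 28 and 40.5 CPM in SW (log2 -1.37 ± 0.35 SE, adjusted p = 0.0459). Neither passed with 1 HFD library alone (adjusted p between 0.0533 and 0.0801, edgeR), and the GC correction brought them to -0.57 and -0.48 on the log2 scale (unadjusted p = 0.188 and 0.284). Pi16, the most abundant marker of these cells, went the other way without passing (216 and 578 CPM in HFD and 905, 772 and 922 CPM in SW, adjusted p = 0.109, edgeR). Among 10 genes of committed preadipocytes 2 were higher and 1, Fabp4, lower, and the median was 0.80, with 0.44 against HFD library 212, 1.25 against HFD library 411 and -0.091 with the GC correction. Ggt5, a gamma-glutamyl transferase, measured 71.8 and 44.4 CPM in HFD and 242, 257 and 252 CPM in SW (log2 2.11 ± 0.28 SE, adjusted p = 0.0362). Its log2 difference was 1.80 against HFD library 212 and 2.48 against HFD library 411, and 1.62 with the GC correction (unadjusted p = 0.00118, edgeR). Icam1, the adhesion molecule used to sort preadipocytes, measured 72.7 and 60.01 CPM in HFD and 125, 107 and 126 CPM in SW (log2 0.85 ± 0.21 SE, adjusted p = 0.0445) and was at 0.008 with the GC correction. Pparg, the regulator of adipocyte differentiation, measured 46.2 and 29 CPM in HFD and 18.7, 18.9 and 22.3 CPM in SW (adjusted p = 0.0606, edgeR). The CD142+ regulatory list had a median of 0.18, with -0.029 against HFD library 212, 0.40 against HFD library 411 and 0.53 with the GC correction. In it Vit, vitrin, was higher (11.8 and 9.86 CPM in HFD and 26, 22.6 and 21.1 CPM in SW, log2 1.10 ± 0.24 SE, adjusted p = 0.039), and F3, which encodes CD142 itself, measured 51 and 11.8 CPM in HFD and 12.1, 20.2 and 12.7 CPM in SW. The adipocyte list had 1 of 10 genes higher, the lipid droplet protein gene Plin4 (17.9 and 29.2 CPM in HFD and 58, 48.9 and 49.95 CPM in SW), and none lower (8 with an unadjusted p under 0.05, 7 called by DESeq2 and 1 by limma-voom), and its summed level was 131 and 318 CPM in HFD and 344 to 547 CPM in SW. Its median was 1.17, with 1.70 against HFD library 212, 0.77 against HFD library 411 and 0.38 with the GC correction. Plin4 had log2 differences of 1.52 against HFD library 212 and 0.83 against HFD library 411. It was at 0.36 with the GC correction (unadjusted p = 0.19, edgeR). The part of adipocyte RNA in Fabp4, Lpl and Cd36, which adipocytes also express, was not tested.

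Matrix genes included both rises and falls. Of 22 collagens and matrix genes 6 were higher and 2 lower in SW, where 5.71% of all genes were higher and 11.7% lower. The median was 0.83, with 0.74 against HFD library 212, 0.93 against HFD library 411, and 0.16 with the GC correction. The summed level was 11077 and 10368 CPM in HFD, 19490.3 to 23962 CPM in SW and 31656 CPM in the LFD library. Col6a1 and Col6a2, chains of the microfibrillar collagen VI, were higher in every SW library. Col6a1 measured 808 and 599.5 CPM in HFD and 2174, 2895 and 2616 CPM in SW (log2 1.86 ± 0.33 SE, adjusted p = 0.0362). Col6a2 measured 1019 and 859 CPM in HFD and 3060.1, 3784 and 3341 CPM in SW (log2 1.85 ± 0.32 SE, adjusted p = 0.0362). Eln, elastin, measured 61.1 and 73.5 CPM in HFD and 199, 238 and 168 CPM in SW (log2 1.58 ± 0.25 SE, adjusted p = 0.0362). Bgn, Loxl1 and Col5a1, which act in collagen assembly and elastic fibre cross-linking, were the other rises, with log2 differences from 1.19 to 1.29. Col6a1 and Col6a2 kept 0.97 and 1.03 with the GC correction and Eln 0.67 (unadjusted p = 0.0376, 0.0231 and 0.0317), as did Bgn 0.84 (unadjusted p = 0.0474), while Loxl1 and Col5a1 were at 0.25 and 0.26 (unadjusted p = 0.374 and 0.486, edgeR). Eln, Bgn, Col5a1 and Loxl1 did not pass with HFD library 411 alone (adjusted p from 0.0526 to 0.0645, edgeR). The falls were Postn, periostin, a matrix protein of wound repair (476 and 199 CPM in HFD and 29.9, 71.8 and 42.9 CPM in SW, log2 -2.80 ± 0.50 SE, adjusted p = 0.0362), and Lox, the enzyme that cross-links collagen (65.1 and 37.9 CPM in HFD and 11.6, 23.3 and 15.2 CPM in SW, log2 -1.62 ± 0.37 SE, adjusted p = 0.0418). Both lay below both HFD libraries in every SW library and kept -1.51 and -0.79 with the GC correction (unadjusted p = 0.00876 and 0.0281), but neither passed with HFD library 411 alone (adjusted p = 0.0732 and 0.134, edgeR). Another 6 members, Col5a2, Col14a1, Fbn1, Timp3, Mmp3 and Mmp14, differed in sign between the HFD libraries.

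**Figure D5:**
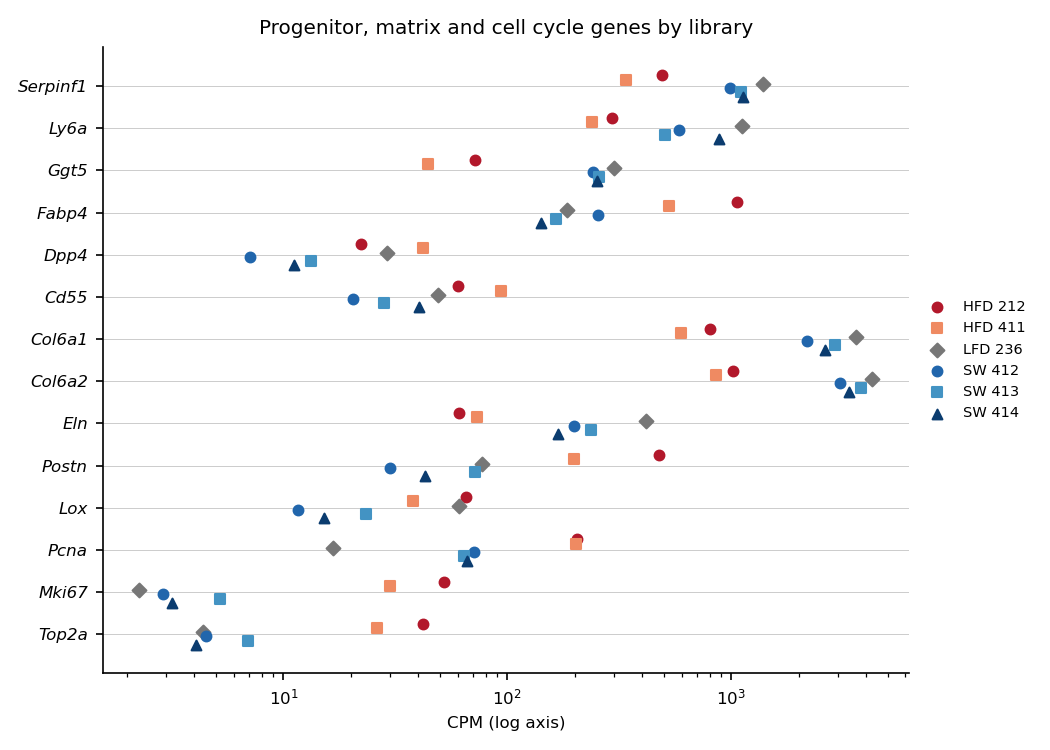
CPM (log axis) of 14 progenitor, matrix and cell cycle genes, 1 point per SVC library, red and orange for HFD, grey for LFD and blues for SW. All SW libraries were above both HFD libraries for Serpinf1, Ly6a, Ggt5, Col6a1, Col6a2 and Eln, and below both for Fabp4, Dpp4, Cd55, Postn, Lox, Pcna, Mki67 and Top2a.

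No cell cycle gene was called higher and several were called lower in SW. Of 16 tested, 6 were lower and none higher, where 11.7% of all genes were lower and 5.71% higher (9 had an unadjusted p under 0.05, and DESeq2 and limma-voom each called 6). Of the 16, 13 lay below both HFD libraries in every SW library, where this held for 30% of all genes. The median log2 difference was -0.94, with -0.98 against HFD library 212, -0.86 against HFD library 411 and -0.91 with the GC correction, and it ranged from -1.10 to -0.82 when each HFD or SW library was left out. Mki67, the proliferation antigen Ki-67, measured 51.9 and 29.9 CPM in HFD and 2.89, 5.21 and 3.18 CPM in SW (log2 -3.42 ± 0.39 SE, adjusted p = 0.0362). Top2a, the topoisomerase that untangles chromosomes, measured 42 and 26.1 CPM in HFD and 4.54, 6.94 and 4.05 CPM in SW (log2 -2.70 ± 0.36 SE, adjusted p = 0.0362), and Bub1, a kinase of the spindle checkpoint, 6.15 and 4.97 CPM in HFD and 0.515, 1.07 and 1.1 CPM in SW (log2 -2.61 ± 0.51 SE, adjusted p = 0.0377). Pcna, the sliding clamp of DNA replication, measured 205 and 202 CPM in HFD and 71.3, 64.4 and 66.2 CPM in SW (log2 -1.60 ± 0.18 SE, adjusted p = 0.0362). In Pcna the HFD libraries lay close together although they differed in mitochondrial share, and in the other 3 library 212 was the higher. Ccna2, cyclin A2, and Rrm2, a subunit of ribonucleotide reductase, also fell (log2 -1.80 and -1.50). With the GC correction all 6 kept an unadjusted p under 0.05, and Mki67 was at -3.07 (unadjusted p = 1.29e-05, edgeR). With HFD library 411 alone Mki67, Top2a and Pcna passed, and Bub1, Ccna2 and Rrm2 did not (adjusted p = 0.0966, 0.0793 and 0.126, edgeR). Mitotic genes such as Ccnb1 (11.1 and 16.4 CPM in HFD and 11.8, 8.31 and 8.98 CPM in SW) and Plk1 (9.68 and 15 CPM in HFD and 23.7, 16.8 and 14.7 CPM in SW) were not called, and Mcm5, a subunit of the replicative helicase, differed in sign between the HFD libraries (41.2 and 124 CPM in HFD and 115, 85.9 and 134 CPM in SW). In the LFD library Mki67 was at 2.27 and Pcna at 16.6 CPM.

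Cell cycle promoters often carry CCAAT boxes and the letters TTTGAA, known as the cell cycle homology region. The 250 bases before the start of Mki67, Top2a and Bub1, the called members of that list with the largest falls, are shown because these genes fell together (RefSeq, GRCm38.p6, 5′ to 3′ on the gene's strand). Capitals mark CCAAT and TTTGAA on either strand, and the motifs do not overlap each other.
Mki67, chr7:135716380-135716629, strand -: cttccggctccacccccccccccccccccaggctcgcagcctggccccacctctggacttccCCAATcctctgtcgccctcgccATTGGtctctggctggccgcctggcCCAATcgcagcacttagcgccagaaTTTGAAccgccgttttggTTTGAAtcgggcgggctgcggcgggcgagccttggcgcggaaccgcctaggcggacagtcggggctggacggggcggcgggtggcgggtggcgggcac
Top2a, chr11:99024190-99024439, strand -: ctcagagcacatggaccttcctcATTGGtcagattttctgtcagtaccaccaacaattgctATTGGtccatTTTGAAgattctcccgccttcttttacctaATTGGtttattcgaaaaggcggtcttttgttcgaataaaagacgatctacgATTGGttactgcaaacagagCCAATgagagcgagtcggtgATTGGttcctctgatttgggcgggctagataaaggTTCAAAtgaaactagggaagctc
Bub1, chr2:127831860-127832109, strand -: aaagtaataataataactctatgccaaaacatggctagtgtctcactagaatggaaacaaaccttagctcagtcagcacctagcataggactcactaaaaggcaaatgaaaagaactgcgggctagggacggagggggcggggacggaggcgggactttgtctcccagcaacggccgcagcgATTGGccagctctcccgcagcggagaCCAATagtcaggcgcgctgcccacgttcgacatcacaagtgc
Mki67 held 3 CCAAT and 2 TTTGAA matches, Top2a 6 and 2, and Bub1 2 CCAAT matches and no TTTGAA. Of the 6 cell cycle genes that fell, 5 had an entry in the promoter table, and CCAAT was in 5 of them and TTTGAA in 2. Of the other cell cycle members 9 had an entry, and CCAAT was in 7 and TTTGAA in 2. Among all 32851 promoter windows of this length 33.8% held CCAAT and 16% held TTTGAA. A match describes the letters of the window and is not evidence of binding.

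The remaining lists held few calls, where 5.71% of all genes were higher and 11.7% lower. Of 24 cytosolic ribosomal protein genes edgeR called 1, Rpl5, lower in SW (18 and 11.4 CPM in HFD and 1.55, 4.13 and 3.83 CPM in SW), while 4 had an unadjusted p under 0.05, and DESeq2 called 4 and limma-voom 1. The median of that list was 0.43, with 0.85 against HFD library 212, -0.02 against HFD library 411 and -0.015 with the GC correction. Of 23 nuclear genes of oxidative phosphorylation edgeR called 1, Ndufs1, a subunit of complex I, also lower (49.98 and 30.1 CPM in HFD and 11.1, 16.2 and 9.64 CPM in SW), while 4 had an unadjusted p under 0.05, and DESeq2 called 3 and limma-voom 1. The median there was 0.33, with 0.48 against HFD library 212, 0.065 against HFD library 411 and 0.0061 with the GC correction. Neither gene passed with HFD library 411 alone (adjusted p = 0.128 and 0.0951, edgeR). Of 6 genes of the epididymal epithelium, which borders this fat pad, 1 was called. It was Cst8, a cystatin of the male tract, with 0.058 and 0 CPM in HFD and 3.92, 7.36 and 0.438 CPM in SW. Among these libraries it was seen mainly in those that held sperm transcripts. In the LFD library, however, Cst8 was at 4.19 CPM while the spermatid genes summed to 39.8 CPM. In edgeR 0 genes were called among 7 of neutrophils (1 with an unadjusted p under 0.05, 1 by DESeq2, 0 by limma-voom), 9 of mast cells, eosinophils and basophils (3, 1 and 0), 12 of mesothelium (0, 0 and 0), 7 of erythroid cells (0, 0 and 0), 3 of Schwann cells (1, 1 and 0), 13 of the mitochondrial genome (3, 4 and 0) and 16 immediate early genes (0, 0 and 0). Of the lists' members 11 were not tested. Adgre1, Chil3, Ighd, Jchain and Siglecf had no row under that symbol, and Ly6g, Mcpt8, Crisp4, Sox10, Cdh19 and Ncmap were under the count minimum.

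Beyond the lists, further genes were chosen after the values were seen. They were called, differed by over 2-fold from each HFD library and by over 2-fold with the GC correction (unadjusted p under 0.05). Rises had also to exceed 2-fold in SW library 414. A mean of at least 10 CPM and groups that did not overlap were required too, as for the largest folds. Genes of the hepatocyte and spermatid lists were left out. So were shared symbols, Gm and Rik names, and mitochondrial genome, ribosomal protein and hemoglobin genes. This left 77 rises (0.472% of genes) and 479 falls (2.94%). Some of the largest rises are given here. Gpx3, the secreted glutathione peroxidase, measured 563 and 417 CPM in HFD and 3151, 3199 and 3213 CPM in SW (log2 2.70 ± 0.33 SE, adjusted p = 0.0362), and Gstm1, a glutathione transferase, 206 and 246 CPM in HFD and 1276, 1034 and 1326 CPM in SW (log2 2.42 ± 0.30 SE, adjusted p = 0.0362). Gstm5, another transferase of the same family, whose reads may be shared with its paralogs, measured 14.1 and 31 CPM in HFD and 204, 207 and 111 CPM in SW, and the same limit holds for Gstm1. Prelp, a leucine-rich proteoglycan of connective tissue, measured 118 and 137 CPM in HFD and 626, 633 and 653 CPM in SW (log2 2.32 ± 0.25 SE, adjusted p = 0.0362), and Wisp2, a secreted factor of fibroblasts, 6.26 and 11.1 CPM in HFD and 46.7, 38.9 and 50.6 CPM in SW. For Gpx3, Gstm1 and Prelp the LFD library was higher still, at 5115, 3615 and 1406 CPM. Pla2g2d, a secreted phospholipase of dendritic cells and macrophages, measured 4.7 and 15.8 CPM in HFD and 69.2, 33.1 and 56.5 CPM in SW (log2 2.37 ± 0.60 SE, adjusted p = 0.0456). Gstm5 and Pla2g2d did not pass with HFD library 411 alone (adjusted p = 0.0513 and 0.0925, edgeR).

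Besides Ptgs2 and Mki67, the falls chosen in this way included Neat1, Meg3, Ccnl1 and Hnrnph1. Neat1, the long noncoding RNA that builds paraspeckles, measured 508 and 145 CPM in HFD and 21, 61.5 and 27.8 CPM in SW (log2 -3.14 ± 0.66 SE, adjusted p = 0.0381). Meg3, an imprinted noncoding RNA, measured 92 and 23.5 CPM in HFD and 3.81, 9.8 and 4.05 CPM in SW (log2 -3.26 ± 0.68 SE, adjusted p = 0.0381). Ccnl1, a cyclin of splicing speckles, measured 169 and 27.2 CPM in HFD and 3.3, 15 and 8.54 CPM in SW (log2 -3.43 ± 0.87 SE, adjusted p = 0.046), and Hnrnph1, an RNA-binding splicing factor, 207 and 47.4 CPM in HFD and 6.49, 21.9 and 14.6 CPM in SW (log2 -3.14 ± 0.72 SE, adjusted p = 0.0413). HFD library 212 was several times as high as library 411 for these 4 genes. Every SW library was below both, as the choice of genes required. None of the 4 passed with HFD library 411 alone (adjusted p = 0.109, 0.11, 0.211 and 0.143, edgeR).

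The change of the SVC was compared with that of the adipocytes of the same fat in 1 edgeR fit of all 15 libraries, in which 4727 of 17441 genes (27.1%) had a different change from HFD to SW in the 2 fractions. In this fit Col6a1 had a log2 change of 1.97 in SVC and -0.99 in adipocytes, and Vwf 2.12 and -0.43. Fabp4 went the other way, with -1.97 in SVC and 0.92 in adipocytes. The adjusted p-values of these differences were 0.000797, 0.00328 and 0.00154 (edgeR). For Mki67 the log2 change in adipocytes was -1.20 (difference -2.08, adjusted p = 0.0259, edgeR), and for Ccl21a it was 1.71 (difference 1.44, adjusted p = 0.0975, edgeR). The part of GC content in these differences was not tested.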

How the data were processed

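RNA of stromal vascular cells and adipocytes was sequenced from mice on the diets above. The authors used Bowtie2 for alignment and RSEM for gene counts. Their processing notes name mm9, and no versions are given in the sources used here. The deposited values are estimated counts, already whole numbers, and 3 columns of the tables matched no labelled sample and were not used. The labels list 10 records of stromal vascular cells for these 2 diets against 5 columns. Diet was taken from the treatment label, since the titles of the SW samples name the low fat diet.

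Counts were tested with edgeR 4.0.16 in R 4.3.3 (minimum count 10, TMM factors, robust quasi-likelihood fit of 6 libraries, Benjamini-Hochberg adjusted p under 0.05). DESeq2 1.42.0, limma 3.58.1, other scalings, filters, covariates and left-out libraries were alternatives. GC content and length came from the longest transcript in GENCODE M21 (GRCm38), found for 99% of genes. Log2 differences against 1 HFD library used the mean SW CPM and a pseudocount of 0.5. Scripts were tested on simulated data.

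The libraries and gene lists were chosen with earlier results of these data known. Named genes were taken from the 12 largest rises and 12 largest falls (called, mean of at least 10 CPM, groups not overlapping), and in each list from the 3 most abundant members, up to 3 called members in each direction and, where a list is given a direction, members that depend on the HFD library. The hepatocyte and spermatid lists and the genes beyond the lists were named after their values were seen. So were Adipoq, Alb, Ccnb1, Cd3e, Cd68, Cdh5, Csf1r, Cxcl2, Il6, Itgax, Pecam1, Plk1, Pparg, Tnf and Vegfa.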

Additional observations from a re-analysis of the deposited data

Results flagged for a closer look

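Between SVC and adipocytes, 8 called members of the gene lists are given that changed differently with the switch, the 8 with the largest difference (edgeR, test of the difference of the changes, Benjamini-Hochberg adjusted p). For Col6a1, a chain of collagen VI, the log2 difference between the fractions was 2.96, from 1.97 in SVC and -0.99 in adipocytes (adjusted p = 0.000797). For Ace, angiotensin converting enzyme, the log2 difference between the fractions was 2.96, from 2.47 in SVC and -0.49 in adipocytes (adjusted p = 0.000514). For Fabp4, the lipid chaperone aP2, the log2 difference between the fractions was -2.89, from -1.97 in SVC and 0.92 in adipocytes (adjusted p = 0.00154). For Ifi44, an interferon-stimulated gene, the log2 difference between the fractions was -2.80, from -2.87 in SVC and -0.07 in adipocytes (adjusted p = 0.00308). For Eln, elastin, the log2 difference between the fractions was 2.76, from 1.67 in SVC and -1.09 in adipocytes (adjusted p = 0.00372). For Rpl5, a ribosomal protein, the log2 difference between the fractions was -2.75, from -2.06 in SVC and 0.69 in adipocytes (adjusted p = 0.00165). For Col6a2, another collagen VI chain, the log2 difference between the fractions was 2.71, from 1.96 in SVC and -0.75 in adipocytes (adjusted p = 0.000797). For Vwf, von Willebrand factor, the log2 difference between the fractions was 2.55, from 2.12 in SVC and -0.43 in adipocytes (adjusted p = 0.00328). Leaving out each HFD or SW library of both fractions in turn kept every one of these 8 past the threshold, with a largest adjusted p of 0.019 (edgeR). Ifi44 rested on few counts in SVC, 36 and 19 in HFD and 1, 5 and 3 in SW, so the size of its difference is uncertain. The HFD libraries of the SVC, which differ in mitochondrial share, enter all of these values. The 8 were chosen by the same values, so the left-out fits are not separate support. Col6a1, Ace, Eln, Col6a2 and Vwf, with a positive difference, had a GC content of 55.15% to 58.84%. Fabp4, Ifi44 and Rpl5, with a negative difference, had 40.35% to 42.74%. The part of GC content in these differences was not tested.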

How the results depend on the processing

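The 2849 genes past the threshold (932 higher, 1917 lower) became 5222 with DESeq2 (2473 higher), 1719 with limma-voom (573 higher, 1146 lower) and 6323 with the mitochondrial share as a covariate (2790 higher, 3533 lower). edgeR called 0 genes with the GC correction (4629 at an unadjusted p under 0.05), 0 with the GC correction after removal of mitochondrial genome and hemoglobin genes (4595, chosen after seeing the data) and 0 against a fold change of 1.5 (5007). Leaving out each library gave between 0 and 6213 genes, 0 to 2772 higher and 0 to 3441 lower. With SW library 414 as the only SW library, chosen after seeing the data because libraries 412 and 413 held sperm transcripts, 77 genes were called (32 higher, 45 lower), and the lone library was assumed to vary like the others. Of calls, 32.7% were higher, against 47.4% with DESeq2, 44.1% with the mitochondrial covariate and 83.5% without SW library 414. The cause of these changes was not tested. RLE and upper-quartile factors, removal of mitochondrial genome and hemoglobin genes, length correction, both filters, the fit of only HFD and SW libraries and thinning gave 2301 to 3527 genes. Fscn1 turned to -0.066 on the log2 scale with the GC correction and -0.060 with that removal as well, and Lamp2 to 0.21 and 0.22. The 4727 genes whose change differed from that of adipocytes became 2936 to 6622 when each library was left out. No paired analysis was possible because the columns of the count table do not carry the replicate numbers of the labels. Depth limits genes of few counts such as Prox1 and Ifi44.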
